A study of Homo sapiens with 6 samples.

Results

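The mitochondrial chromosome was examined as a stretch of the CELF1 RIP-Seq data in its own right. CELF1 (also CUGBP1) is an RNA-binding protein of nucleus and cytoplasm that recognises GU-rich elements. In RIP-Seq, it is pulled down with an antibody and the RNA that comes with it (IP) is sequenced beside the RNA of the lysate (input). Members were all 20-bp bins on the mitochondrial chromosome in any of the 3 lists of bins deposited by the authors, each list being 1 IP sample called against its own input. They numbered 589 of 816781 bins in SK-Mel-103, and 973 of 780750 and 1146 of 862731 in replicates 1 and 3 of UACC-62. Values for all 3 samples are given in this order throughout. Over the 3 lists these were 1226 distinct bins of the 1658 that both strands of the chromosome can hold.

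SK-Mel-103 and UACC-62 are established human melanoma lines, and neither a genetic change nor a drug is given for any sample. Both were grown in serum-containing medium, fixed in formaldehyde and lysed with sonication, and a step that separates mitochondria from other cell content is not named. The antibody against CELF1 was bound to protein A beads. The methods also name mouse IgG on such beads, but the series holds only CELF1 IP and input samples. RNA held by the beads or by any antibody therefore cannot be told apart from RNA held by CELF1. SK-Mel-103 had 1 IP sample and therefore no replicate, and UACC-62 had 2 biological replicates. The lists held 10958459 to 14436573 IP reads and 8453517 to 10161917 input reads per sample. The melanocyte-lineage factor SOX10, MITF, MLANA and the mesenchymal filament gene VIM had listed reads in all 3 samples. KRT5 and PMEL had none, and TYR had none in SK-Mel-103. The leukocyte gene PTPRC had 0, 25 and 8 IP reads.

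The human mitochondrial genome is a small circle read from both strands. The long heavy-strand transcript carries both rRNAs of the mitochondrial ribosome, 14 tRNAs and 12 of the 13 mRNAs, all of which encode subunits of the respiratory chain or ATP synthase. The light-strand transcript carries only MT-ND6 and 8 tRNAs, and its remainder is RNA opposite the heavy-strand genes that is normally degraded soon after it is made. Both are cut into single RNAs within the organelle, where the tRNAs mark most of the cleavage sites.

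All values below compare IP with input as log2 IP over input. This is the log2 of the IP reads plus 1, as a share of all IP reads of the list, minus the same for the input reads. A value of 0 means an equal share of both libraries. Only bins that passed the authors' threshold are listed, and no listed bin had fewer than 4 IP reads. The lowest IP count listed rose with input strongly in SK-Mel-103, less in UACC-62 replicate 1 and hardly in replicate 3. Above 1000 input reads, the lowest count listed was 110, 19 and 5 IP reads. Each ratio therefore holds for listed bins and not for all RNA of the region.

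The bins below were printed to show the RNA on which the results turn. Apart from the richest bin, they are the 20-nt bins with the highest and the lowest ratios among those with more than 30 IP reads in all 3 samples, at least 100 bp apart. Bins were ranked by the lowest of their 3 log2 values, so that a single sample can decide the place of a bin. Each is shown 5′ to 3′ on its own transcript from the GRCh37 mitochondrial sequence (16569 nt), with the bin in capitals and 20 nt on either side. The alignment may have used the other mitochondrial reference in circulation with GRCh37, and each bin could then lie 1 or 2 nt away.
Heavy strand, MT-CO1, chrM:6021-6080: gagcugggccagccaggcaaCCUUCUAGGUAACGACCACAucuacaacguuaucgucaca
Heavy strand, MT-CO1, chrM:6881-6940: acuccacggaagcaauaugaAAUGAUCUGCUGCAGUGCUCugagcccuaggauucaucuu
Heavy strand, MT-CO3, chrM:9881-9940: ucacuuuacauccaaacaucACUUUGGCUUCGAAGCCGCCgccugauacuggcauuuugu
Heavy strand, MT-CO3, richest in IP reads, chrM:9921-9980: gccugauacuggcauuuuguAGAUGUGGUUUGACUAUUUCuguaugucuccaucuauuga
Heavy strand, control region, lowest single value, chrM:16021-16080: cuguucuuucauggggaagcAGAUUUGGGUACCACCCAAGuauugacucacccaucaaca
Light strand, opposite MT-RNR2, chrM:2781-2840: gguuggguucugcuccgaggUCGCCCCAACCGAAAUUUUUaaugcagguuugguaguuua
Light strand, opposite MT-RNR1, chrM:761-820: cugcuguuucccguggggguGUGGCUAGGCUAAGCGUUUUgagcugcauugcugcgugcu
Light strand, opposite MT-RNR2, chrM:2381-2440: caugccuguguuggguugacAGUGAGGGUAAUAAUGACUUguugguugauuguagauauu
Light strand, opposite MT-ND5, lowest single value, chrM:12701-12760: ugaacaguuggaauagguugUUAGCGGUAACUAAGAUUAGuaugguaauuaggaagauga
The highest heavy-strand bin lay in MT-CO1 at log2 0.21, 0.05 and 0.55. All 3 of the highest light-strand bins lay opposite the rRNA genes, and the highest of them had log2 3.58, 3.38 and 3.79. The heavy-strand bin with the lowest single value, in the control region, had -1.85, -4.40 and -1.73, and was not the lowest in SK-Mel-103, where a bin of MT-CO3 had -2.44. The light-strand bin with the lowest single value, opposite MT-ND5, had log2 -3.08, -1.69 and -0.63.

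Mitochondrial RNA took a smaller share of the reads in IP than in input in each of the 3 samples. The share of IP reads was 0.0894% (exact 95% interval 0.0877 to 0.0912%), 0.230% (0.228 to 0.233%) and 0.365% (0.362 to 0.368%). The share of input reads was 0.545% (0.540 to 0.550%), 1.18% (1.18 to 1.19%) and 1.10% (1.10 to 1.11%). These intervals cover counting error only, since reads without molecular identifiers are not independent molecules.

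The log2 IP over input of all mitochondrial bins was -2.61, -2.36 and -1.60, a mean of -2.19 ± 0.53 (SD, n = 3). The RNA was lower in IP in 3 of 3 samples, and an exact 2-sided sign-flip permutation test over the 3 IP and input pairs gave p = 0.25, the smallest p that 3 pairs allow. Of the listed mitochondrial bins, 65 (11%), 215 (22.1%) and 408 (35.6%) held more than 30 IP reads, against 6.85%, 7.44% and 9.85% of all listed bins. Bins with a log2 above 0 numbered 73 (12.4%), 78 (8.02%) and 198 (17.3%), against 62.3%, 65.3% and 66% of all listed bins. Listed mitochondrial bins thus held more than 30 IP reads more often than listed bins in general, while most of them lay below the input. They filled 35.5%, 58.7% and 69.1% of the positions on both strands. Both comparisons hold for listed bins not matched on input, and the lowest IP count listed rose with input, most in SK-Mel-103.

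**Figure D1:**
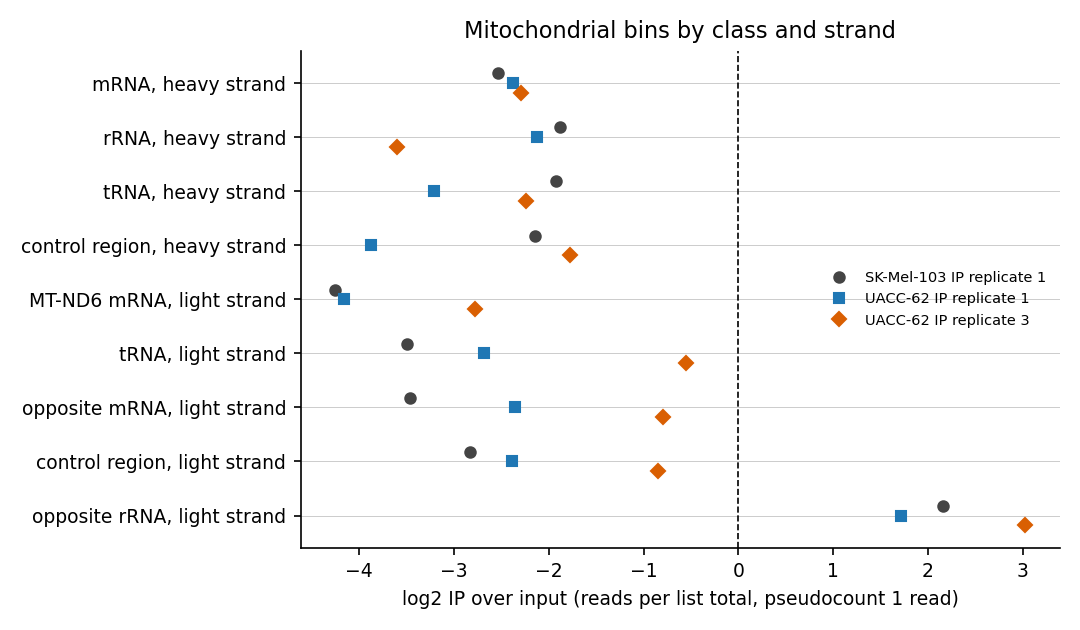
Log2 IP over input (horizontal axis, reads as a share of the list total with a pseudocount of 1 read) of the bins of each class of mitochondrial RNA, with 1 point for each of the 3 IP samples. Of the classes drawn, only the light-strand RNA opposite the rRNA genes lies above 0, at 2.16, 1.71 and 3.03. RNA opposite tRNAs, RNA opposite MT-ND6 and the few bins between genes are left out, and the 1 light-strand bin listed between genes in each sample had 12, 32 and 47 IP reads against 4, 34 and 11 input reads, which is above 0 in SK-Mel-103 and UACC-62 replicate 3.

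The mRNAs held most of the heavy-strand reads. All 13 mRNAs had a log2 below 0 in all 3 samples. As a class they had log2 -2.57, -2.40 and -2.30, which made them 5.92-fold, 5.30-fold and 4.93-fold lower in IP, and the samples spread little. The class had listed bins at 246, 424 and 467 of its 568 positions. Of these bins 7, 4 and 11 lay above 0.

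Cytochrome c oxidase (complex IV) had the highest ratios among the complexes, at log2 -2.26 in SK-Mel-103 and -1.94 ± 0.11 (SD, n = 2) in UACC-62. MT-CO1, its catalytic subunit, had 1769, 4224 and 5542 IP reads and 5493, 10796 and 14074 input reads. Its log2 was -2.01, -1.51 and -2.04, with 22, 44 and 50 bins above 30 IP reads, the most of the 13 mRNAs in each sample. The 2 bins of MT-CO1 printed above were among its highest, the other having log2 0.09, -0.42 and -0.36.

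MT-CO3, a core subunit, had 1158, 2508 and 6350 IP reads and 4781, 8308 and 13574 input reads. Its log2 was -2.42, -1.89 and -1.79. Per kb of gene it was the richest mRNA in IP, at 135, 282 and 561 CPM per kb (reads as a share of the list total), and also in input, at 721, 1043 and 1945 CPM per kb. Its IP reads were concentrated, because the single bin at 9941 to 9960, ending 30 nt before the gene's end, held 37.5%, 35.8% and 39.4% of them.

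That bin was the richest in IP of the whole chromosome in each sample, with 434, 899 and 2501 IP reads against 1131, 1000 and 3900 input reads. Even so its log2 was -1.75, -0.31 and -1.34. MT-CO2, which accepts electrons from cytochrome c, had 162, 553 and 718 IP reads and a log2 of -3.19, -3.26 and -3.12. It was thus lower than the other subunits of complex IV in every sample.

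MT-CYB encodes the cytochrome b of complex III. It had 306, 843 and 1165 IP reads against 1334, 3436 and 3348 input reads, and its log2 was -2.49, -2.18 and -2.22. The UACC-62 replicates differed by less here than for any other mRNA (SD 0.03, n = 2).

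The 7 subunits of NADH dehydrogenase (complex I) together had log2 -3.14 in SK-Mel-103 and -2.86 ± 0.21 (SD, n = 2) in UACC-62. MT-ND5, a proton-pumping subunit, was the highest in UACC-62, with 378, 970 and 1211 IP reads and log2 -2.49, -2.17 and -1.93. MT-ND4, another pump subunit, had 340, 959 and 1652 IP reads and log2 -3.36, -3.11 and -2.66. MT-ND4L, whose reading frame overlaps that of MT-ND4 in the same mRNA, had 62, 192 and 403 IP reads and log2 -3.41, -2.90 and -2.44.

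The remaining heavy-strand subunits of complex I had few IP reads in SK-Mel-103. MT-ND1 had 74, 491 and 528 IP reads and log2 -2.69, -2.70 and -2.86. MT-ND2 had 98, 596 and 909 IP reads and log2 -3.67, -3.62 and -3.30. MT-ND3 had 15, 45 and 109 IP reads and log2 -2.40, -3.86 and -3.49, the SK-Mel-103 value resting on 1 bin.

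MT-ND6, the mRNA of the light strand, was the lowest mRNA in SK-Mel-103 and replicate 1 of UACC-62. It had 37, 86 and 220 IP reads against 558, 1396 and 936 input reads. Its log2 was -4.25, -4.16 and -2.78, and the 2 UACC-62 replicates stood further apart (SD 0.98) than for any other mRNA.

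ATP synthase (complex V) had the lowest ratios among the complexes, at log2 -3.74 in SK-Mel-103 and -3.54 ± 0.37 (SD, n = 2) in UACC-62. MT-ATP6, its proton-channel subunit, had 85, 393 and 690 IP reads and log2 -3.79, -3.82 and -3.30. MT-ATP8, a short subunit whose reading frame overlaps that of MT-ATP6, had only 4, 16 and 45 IP reads and log2 -1.51, -3.19 and -2.91. The SK-Mel-103 value of MT-ATP8 rests on a single bin.

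In the order of UACC-62 means, MT-CO1 (-1.78 ± 0.38) and MT-CO3 (-1.84 ± 0.06) came first, followed by MT-ND5 (-2.05 ± 0.17) and MT-CYB (-2.20 ± 0.03), and MT-ND3 (-3.68 ± 0.26) came last of the mRNAs. With the rRNAs placed in the same order, the gap between neighbours exceeded the larger of their SDs only from MT-CO3 to MT-ND5 and from MT-CO2 to MT-ND2. All other neighbours in the order did not differ beyond the spread of the replicates. MT-RNR2 (-2.61 ± 1.12) stood between MT-CYB and MT-ND4L (-2.67 ± 0.33). With mRNAs alone, MT-CYB and MT-ND4L would be neighbours, and their gap would exceed the larger SD. As a description over 13 mRNAs, the order of log2 values had a Spearman correlation of 0.84 between the UACC-62 replicates, and of 0.53 and 0.27 between SK-Mel-103 and UACC-62 replicates 1 and 3. These values share the same transcripts and bins of like base composition.

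**Figure D2:**
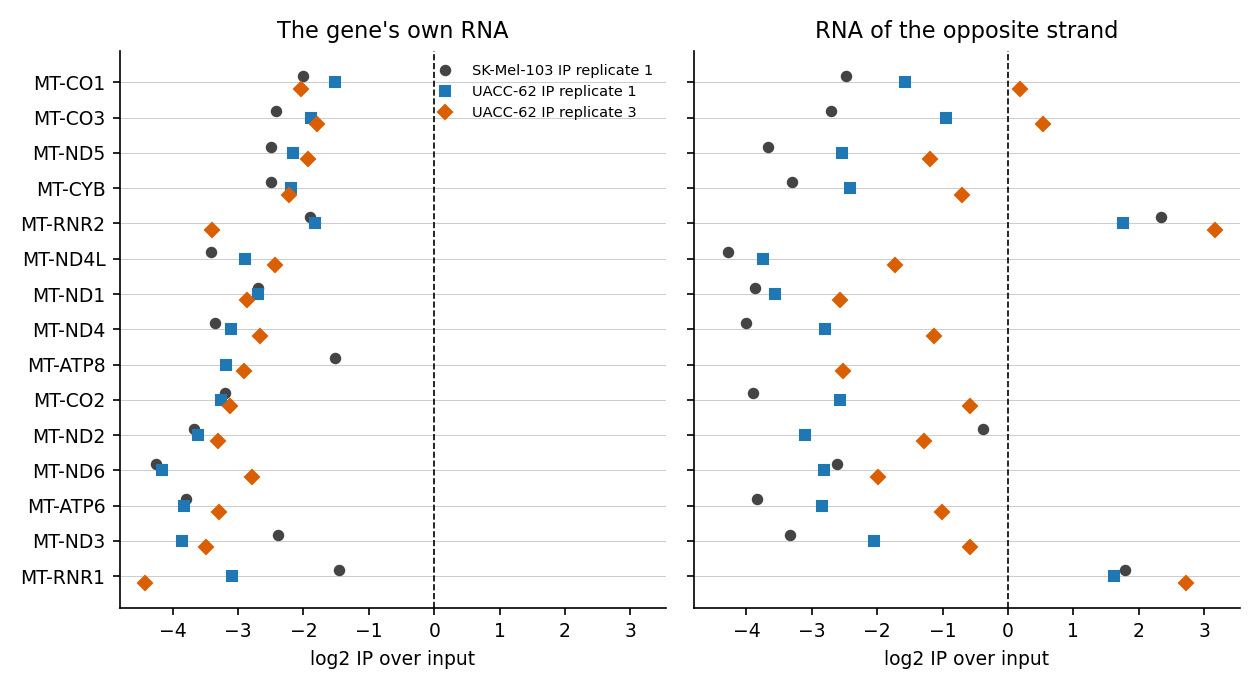
Log2 IP over input (horizontal axes) of the 13 mRNAs and 2 rRNAs (left) and of the RNA from the opposite strand over the same stretches (right), ordered by the UACC-62 mean of the gene's own RNA, with 1 point per IP sample and no point where no bin was listed. All points on the left lie below 0, and on the right MT-RNR1 and MT-RNR2 lie above 0 in all 3 samples.

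Both rRNAs, which form the core of the mitochondrial ribosome subunits, were sparsely listed on their own strand. Of 125 possible bins 21, 38 and 35 were listed and none held more than 30 IP reads. MT-RNR2, the large subunit rRNA, had 149, 265 and 310 IP reads against 429, 839 and 2023 input reads, and its log2 was -1.89, -1.82 and -3.40. MT-RNR1, the small subunit rRNA, had 8, 53 and 49 IP reads against 18, 411 and 662 input reads, and its log2 was -1.45, -3.09 and -4.43.

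The UACC-62 replicates differed widely for both (SD 1.12 for MT-RNR2 and 0.95 for MT-RNR1, n = 2), with replicate 3 lower each time. Abundant rRNA was removed from all libraries with a kit of probes complementary to it before sequencing, as the protocol describes. The labels also describe the IP RNA as poly A+, although they give total RNA as the molecule, and a selection of that kind in IP alone would bear on all ratios of rRNA, tRNA and light-strand RNA. Its part in these values was not tested. Reads on the rRNA genes therefore count what the removal left, and they give no level of the rRNAs in the cells.

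The tRNAs, which carry amino acids to the ribosome and are short and heavily modified, were the least covered. A bin was listed in 4, 10 and 13 of the 22 tRNAs, and in all 3 samples for 4 of them. As a class they had 76, 144 and 313 IP reads and a log2 of -2.67, -2.95 and -1.34. Reads from uncut precursors cannot be told apart from those of the finished tRNA.

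MT-TV, which lies between the rRNAs, had the most IP reads, with 41, 17 and 36, and log2 -1.34, -4.40 and -3.15. MT-TP had 14, 34 and 45 IP reads and log2 -4.04, -2.95 and -0.85. MT-TA had 11, 14 and 36 IP reads and log2 -2.04, -1.92 and -1.01.

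MT-TY was listed in UACC-62 alone, with 14 and 65 IP reads and log2 -1.95 and 0.14. All of these except MT-TV are encoded by the light strand. No bin was listed in any sample for 9 tRNAs, among them MT-TE and MT-TF. The other 9 tRNAs with a bin had between 4 and 58 IP reads over the 3 samples.

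The light-strand RNA opposite the rRNA genes stood apart from the classes above, with more IP than input in all 3 samples. It had 1581, 1670 and 3329 IP reads against 272, 456 and 251 input reads. The log2 was 2.16 in SK-Mel-103 and 2.37 ± 0.93 (SD, n = 2) in UACC-62, where replicate 1 had 1.71 and replicate 3 had 3.03. This corresponds to 4.47-fold, 3.28-fold and 8.15-fold more IP than input. The stretch was set apart as a class of its own after the values had been seen, and its size is given as a description with no test.

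Listed bins covered 68, 69 and 85 of the 125 positions, and 63, 63 and 80 of them lay above 0, where 62.3%, 65.3% and 66% of all listed bins did. A log2 above 0 was rare elsewhere on the chromosome, with 10 of 521, 15 of 904 and 118 of 1061 bins. Of the 526 mitochondrial bins listed in all 3 samples, 52 lay above 0 in each, and 51 of these 52 were opposite the rRNA genes. Another 394 of the 526 lay below 0 in all 3 samples at once. The listing bears on these counts. No listed bin had fewer than 4 IP reads, so a listed bin with little input cannot lie far below 0. Input in the stretch averaged 4, 6.61 and 2.95 reads per listed bin. The shares over all listed bins were not matched on input.

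Opposite MT-RNR2 the light strand had 1106, 1127 and 2344 IP reads against 167, 298 and 160 input reads, and log2 2.35, 1.76 and 3.17. Opposite MT-RNR1 it had 475, 543 and 985 IP reads against 105, 158 and 91 input reads, and log2 1.79, 1.62 and 2.72. Both stretches were high in every sample, and neither had a sample below 0.

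The stretch differed from the remainder of the light strand mainly in input. Per listed bin the stretch held 23.3, 24.2 and 39.2 IP reads, beside 12.3, 26.7 and 51.8 IP reads in the other listed bins of the light strand. In input it held 4, 6.61 and 2.95 reads per listed bin, beside 98.1, 126 and 57.3 in the others. The stretch thus had more IP reads per bin than the others in SK-Mel-103 and fewer in UACC-62, and far fewer input reads in all 3 samples. It took 35.7%, 13% and 11% of the light-strand IP reads but 1.19%, 0.858% and 0.837% of the light-strand input reads.

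**Figure D3:**
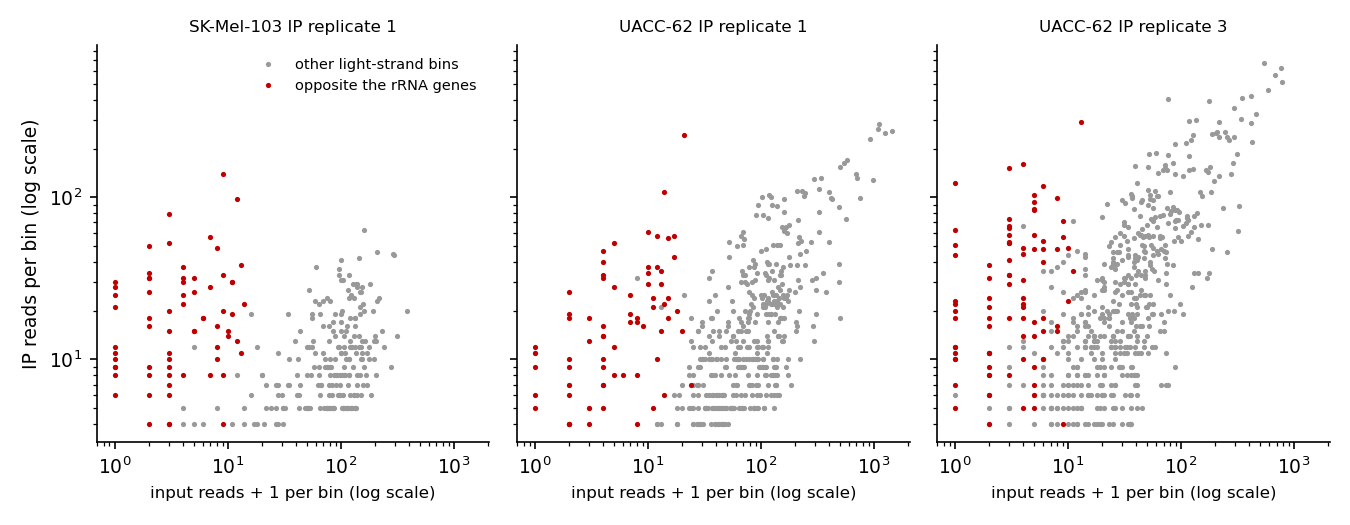
IP reads (vertical axis, log scale) against input reads plus 1 (horizontal axis, log scale) of each listed light-strand bin in the 3 IP samples, with bins opposite the rRNA genes in red and all other light-strand bins in grey. The red bins average 4, 6.61 and 2.95 input reads and lie left of nearly all grey bins at like heights of IP reads.

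A few nuclear rRNA genes or pseudogenes had more IP than input on the opposite strand. Of 541 annotated, 8, 9 and 4 had listed bins there (12, 15 and 9 bins), with 500, 226 and 325 IP reads against 20, 21 and 13 input reads. Their log2 was 4.2, 3.21 and 3.84. On the strand of these genes there were 20, 121 and 14 IP reads against 5, 1992 and 2535 input reads. Most of the opposite-strand reads came from a pair of 5S pseudogenes. RNA5SP352 had 202, 78 and 115 such IP reads against 5, 4 and 2 input reads, and RNA5SP216 had 175, 69 and 132 against 9, 4 and 7. Opposite-strand bins that also lie in another gene read from that strand were not left out. Whether these reads belong to such a gene was not tested.

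All libraries went through rRNA removal, which by the study's methods began from a much smaller mass of RNA for IP than for input, while the labels give the same mass for both. The part of that step in the light-strand result was not tested. These nuclear genes were looked at after the mitochondrial values had been seen, and reads that match several places were kept by the alignment.

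Over protein-coding genes of the nucleus, the strand opposite the gene held 2.15%, 1.97% and 1.93% of IP reads and 1.03%, 0.915% and 1.10% of input reads. These shares count reads in listed bins only, and were higher in IP than in input in every sample. The part of strand switching in the light-strand result was not tested. On the mitochondrial chromosome the light strand held 45.2%, 49.3% and 57.4% of IP reads and 49.8%, 44.3% and 30.5% of input reads.

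Outside the rRNA genes the light-strand RNA lay below the input, by an amount that differed between samples. Its log2 was -3.37, -2.39 and -0.84. In UACC-62 it was -1.62 ± 1.10 (SD, n = 2), whereas the whole heavy strand had -2.40 ± 0.14 (SD, n = 2). The stretch opposite the rRNA genes exceeded this remainder by 5.53 in SK-Mel-103 and by 3.99 ± 0.17 (SD, n = 2) in UACC-62.

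The light-strand stretch with the most IP reads lay opposite MT-ND5. It had 673, 2232 and 5155 IP reads and log2 -3.68, -2.54 and -1.19. Opposite MT-CYB there were 363, 1121 and 3643 IP reads and log2 -3.31, -2.41 and -0.70. Opposite MT-CO3 there were 311, 1221 and 2421 IP reads and log2 -2.70, -0.94 and 0.53.

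UACC-62 replicate 3 was the highest each time and SK-Mel-103 the lowest, and the stretch opposite MT-RNR2 completes the 4 richest. No bin was listed opposite MT-TK or MT-TV. Stretches opposite the other heavy-strand genes had between 5 and 3331 IP reads over the 3 samples.

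Set against its own mRNA, the light-strand stretch had the higher log2 for 1 of 11, 6 of 11 and 12 of 12 heavy-strand mRNAs with bins on both strands. In SK-Mel-103 the exception was MT-ND2, whose opposite strand had 1 bin of 4 IP reads and 4 input reads. For MT-CO1 the light strand minus the mRNA was -0.46, -0.07 and 2.23, and for MT-CO3 it was -0.28, 0.94 and 2.32. The comparison of strands thus went either way depending on the sample.

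The light-strand share of input moved with this. UACC-62 replicate 3 had the smallest light-strand share of mitochondrial input reads (30.5%) and the largest share of IP reads (57.4%). The heavy strand differed little, with log2 -2.48, -2.50 and -2.30. Whether replicate 3 differs in its input library or its IP cannot be told apart with 1 library of each.

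**Figure D4:**
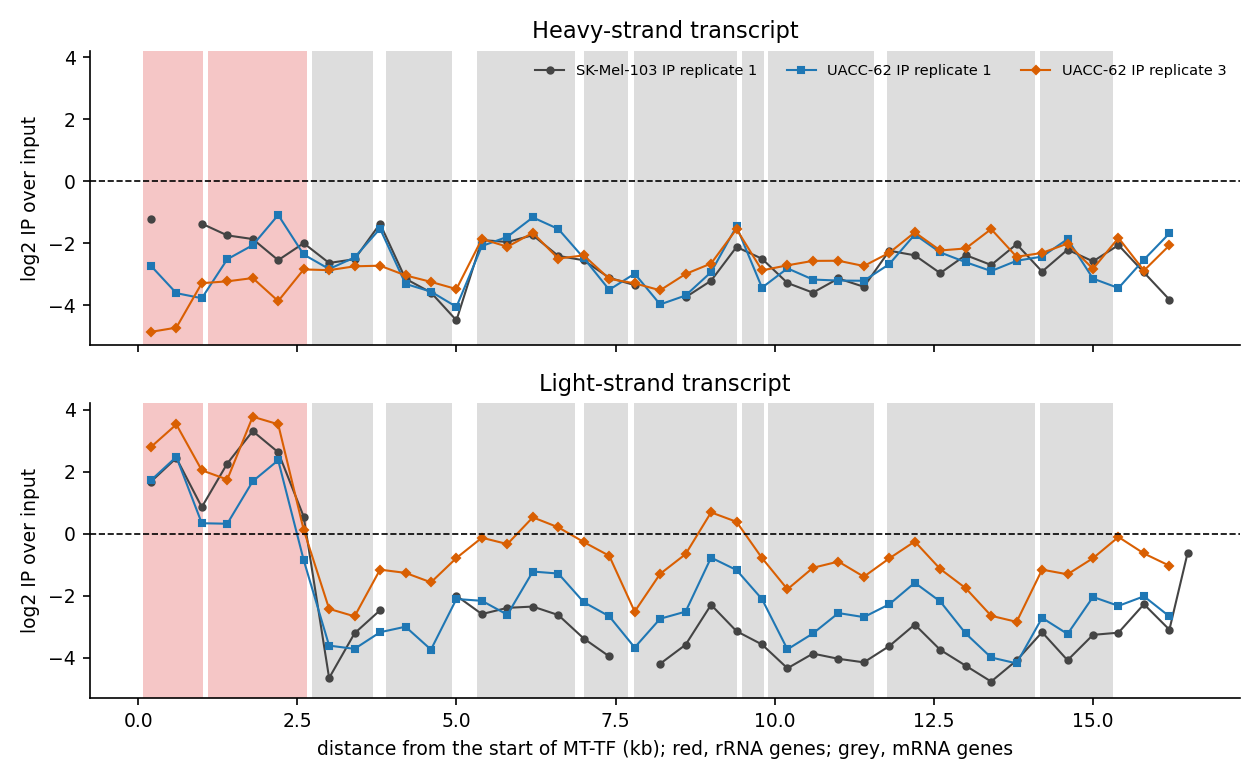
Log2 IP over input (vertical axes) in windows of 400 bp by distance from the start of MT-TF in kb (horizontal axis) for the heavy-strand (top) and light-strand transcript (bottom), with 1 line per IP sample and rRNA genes in red and mRNA genes in grey. The heavy strand has no window above 0, and the light strand has 7, 6 and 11, of which 7, 6 and 7 lie in the first 2800 bp.

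Along the chromosome, no heavy-strand window of 400 bp was above 0 in any sample. On the light strand 7 of 39, 6 of 41 and 11 of 41 windows with bins were above 0. All but 4 of these, which were in UACC-62 replicate 3, lay within the first 2800 bp, the part with the rRNA genes.

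The control region holds the promoters and the origin of heavy-strand replication and codes for no protein. It had 1078, 3951 and 9980 IP reads against 4916, 22384 and 12862 input reads, and its log2 was -2.56, -2.66 and -1.06. Most of these reads came from the light strand, with 596, 3496 and 8189 IP reads. Its log2 there was -2.83, -2.38 and -0.85. The light-strand bins at 16441 to 16460 and 16461 to 16480 were among the 5 richest in IP reads in both UACC-62 replicates, with 264 and 282 reads in replicate 1 and 677 and 630 in replicate 3.

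On the heavy strand, the bin at 16041 to 16060 held 324, 248 and 1313 IP reads against 901, 4712 and 2685 input reads. Its log2 was -1.85, -4.40 and -1.73. The UACC-62 replicates differed more in IP reads than in input reads there, and IP was below input in all 3 samples.

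On this chromosome most bins of the smaller lists were also in the larger ones. Of the 1226 distinct bins, 526 were listed in all 3 samples. The same shares over all listed bins were not computed, so it is not known whether mitochondrial bins overlap more than others. Of the bins of UACC-62 replicate 1, 93.9% were also listed in replicate 3, and 79.8% of those of replicate 3 were listed in replicate 1. Both UACC-62 replicates listed 89.3% of the SK-Mel-103 bins. The 526 bins listed in all 3 samples were 258 on the heavy and 268 on the light strand. More than 30 IP reads were held by 413 distinct bins in at least 1 sample and by 57 in each.

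Over the common bins, the log2 values of the UACC-62 replicates had a Pearson correlation of 0.51 on the heavy and 0.86 on the light strand. Between SK-Mel-103 and UACC-62 it was 0.56 and 0.45 on the heavy strand and 0.86 and 0.84 on the light strand, for replicates 1 and 3. Bins of a strand share transcripts, libraries and base composition, and the values are a description. The higher light-strand values include the contrast between the rRNA stretch and the remainder.

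The strands differ sharply in the letters that CELF1 is known to bind. The light-strand transcript is 62.2% G and U and the heavy-strand transcript 37.8%. In windows of 60 nt around the bins, UGUU stood in 42.5% of 635 listed light-strand bins and 6.26% of 591 listed heavy-strand bins. Among all possible bins of the chromosome these shares were 43.8% and 8.20%, and among nuclear listed bins sampled at every 50th the share was 33.8% of 46645.

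GUGU stood in 32.6% of listed light-strand bins, 2.03% of listed heavy-strand bins and 21.1% of the nuclear bins. A GU-rich element, counted as an 11-nt stretch of UGUU repeats or of UG repeats within 2 mismatches on the transcript strand, stood in 5.35%, 0.169% and 4.70%. All possible light-strand bins held it in 6.76% of cases and heavy-strand bins in 0.241%. The motif CUG stood in 51.2%, 50.8% and 70.2% of listed light-strand, listed heavy-strand and nuclear bins. Motifs were searched on the transcript strand only and may overlap, and a match is a description of letters.

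Opposite the rRNA genes, UGUU stood in 39.8% of 88 listed bins and the GU-rich element in 6.82%. Opposite the mRNA genes these shares were 44.9% and 4.54% of 441 bins. GUGU stood in 34.1% of listed bins opposite the rRNA genes and 34.2% opposite the mRNA genes. The motif that differed most was CUG, in 72.7% and 43.1%. Opposite the rRNA genes, bins with GUGU had a median log2 of 2.58, 1.70 and 3.13, and bins without it 1.63, 1.22 and 2.33. The medians with UGUU were 2.43, 1.75 and 2.59, and without it 1.68, 1.22 and 2.30. With CUG they were 1.65, 1.64 and 2.59, and without it 2.11, 1.16 and 2.11.

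Opposite the mRNA genes, the medians were -3.36, -2.64 and -0.93 with GUGU and -3.41, -2.46 and -0.92 without. Opposite the rRNA genes, bins with GUGU or UGUU thus had the higher median in all 3 samples, and bins with CUG in UACC-62 alone. Opposite the mRNA genes, GUGU went with a higher median in SK-Mel-103 and a lower one in UACC-62. In the heavy-strand mRNAs 5 bins per sample held GUGU, with medians of -1.66, -1.36 and -1.38 against -2.58, -2.66 and -2.55 without. UGUU went the other way there, with medians of -2.76, -2.83 and -2.76 against -2.55, -2.64 and -2.54 without. Opposite the mRNA genes, the medians were -3.43, -2.48 and -1.05 with UGUU and -3.24, -2.53 and -0.89 without. Windows of neighbouring bins overlap, so that a motif can count in several bins.

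Compared with nuclear genes, most mitochondrial mRNAs lay at the low end. Among nuclear protein-coding genes with at least 100 IP plus input reads (8726, 8269 and 8898 genes), the median percentile of the 13 mRNAs was 0.0802, 0.0725 and 0.202. The highest were MT-ATP8 at percentile 2.81 in SK-Mel-103, MT-CO1 at 18.4 in UACC-62 replicate 1 and MT-CO3 at 6.88 in replicate 3. The minimum of 100 reads was not applied to the mitochondrial mRNAs. MT-ATP8 in SK-Mel-103, with a single listed bin, fell below it. The nuclear genes were not matched on input. Bins with 1 to 30 input reads numbered 164 of 589 on the chromosome and 687231 of 816781 in the whole list of SK-Mel-103. In the UACC-62 replicates they numbered 172 of 973 and 432 of 1146, against 586086 of 780750 and 555545 of 862731. With at least 4 IP reads per listed bin, bins of little input cannot reach the lowest ratios, so the percentiles depend on input. The light strand opposite MT-RNR2 lay at percentile 98, 89.4 and 97.5 and that opposite MT-RNR1 at 94.5, 88 and 95.8.

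**Figure D5:**
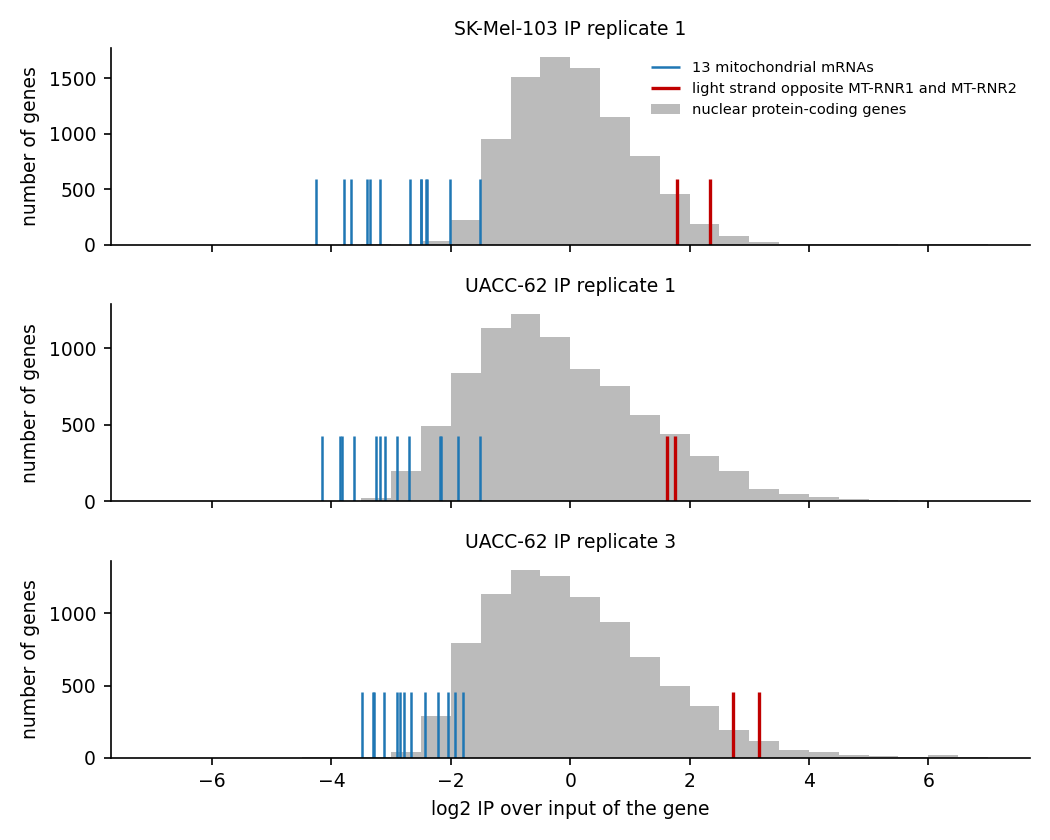
Number of nuclear protein-coding genes (vertical axes) by log2 IP over input (horizontal axis, steps of 0.5) in each IP sample, with the 13 mitochondrial mRNAs marked in blue and the light-strand RNA opposite MT-RNR1 and MT-RNR2 in red. The blue marks have a median percentile of 0.0802, 0.0725 and 0.202 among the nuclear genes, and the red marks lie at percentile 88 and above. The nuclear genes are not matched on input.

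Nuclear genes whose proteins work in mitochondria were summarised as lists. Of 77 nuclear subunits of the respiratory chain, 75, 77 and 76 were measured and 1 in each sample lay above 0. Their median log2 was -1.13, -2.15 and -1.85, beside -0.02, -0.40 and -0.18 over all nuclear protein-coding genes. Of 82 mitochondrial ribosomal proteins, 6 of 77, 2 of 74 and 5 of 78 measured lay above 0, with medians of -0.95, -1.93 and -1.58.

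Of 38 factors of mitochondrial transcription and RNA handling, 9 of 33, 6 of 32 and 7 of 34 lay above 0, with medians of -0.28, -1.15 and -0.85. Over all nuclear protein-coding genes measured, 49.5%, 39.9% and 45.8% lay above 0. TFAM, which packages mitochondrial DNA and activates its transcription, had log2 0.81, 0.33 and 0.27. LRPPRC, which stabilises mitochondrial mRNAs together with SLIRP, had log2 0.16, 0.21 and -0.86.

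SLIRP itself had log2 -1.29, -2.95 and -2.36. These 3 genes were chosen for their known roles and not by rule. In all 3 samples SLIRP was below 0 and TFAM above it.

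Nuclear copies of mitochondrial genes share sequence with the chromosome, and a read that matched both was kept at up to 20 places. Over 405 annotated copies, the bins on the gene's strand had 1279, 3027 and 4599 IP reads and log2 -2.28, -2.11 and -2.25. On the opposite strand they had 223, 931 and 2616 IP reads and log2 -2.60, -1.80 and -0.37. The largest, MTCO1P12, had 1000, 1919 and 2704 IP reads and log2 -2.01, -1.41 and -1.74, close to those of MT-CO1. Reads of the copies and of the mitochondrial genes cannot be separated in these lists.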

How the data were processed

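CELF1 RIP-Seq lists of 3 IP samples, each called against its own input, were used out of 6 samples in the series. Groups and replicate numbers came from the sample titles. Reads were aligned by the authors to GRCh37 with TopHat2 (2.0.4) and Bowtie (0.12.7) per the submitters' processing notes, while the methods name other versions, and called with Piranha in bins of 20 bp. As deposited, the counts give IP reads of each bin in whole numbers without normalization. The p-value deposited by the authors served only as the list's threshold and as an alternative. The ratio deposited by the authors as covariate scales input reads to the bin richest in input. Input reads were recovered as multiples of its smallest step (100% whole within 0.05), and the value 0.01 was read as no input.

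The transcript strand was the reverse of the listed strand. Bins were assigned by their centre to genes of GENCODE version 44 mapped to GRCh37. Depth and precision follow from the list totals. Members, gene lists and classes were chosen with earlier results of these data known. All mRNAs and rRNAs were named. Of tRNAs and of light-strand stretches opposite heavy-strand genes, the 4 richest in IP reads and 2 with the fewest (the first by name where several had none) were named. An exact sign-flip permutation test over 3 pairs was the only test. Alternatives covered read filters of 30 and 100, a p-value of 0.01, scaling, a pseudocount of 0.5 read, bins without input, common bins, strand, gene edges, each replicate, and, added after seeing the data, shifted gene positions. Steps were tested on simulated data, which recovered all 50000 input counts and all 263 bin classes. Tools were matplotlib 3.10.9, scipy 1.17.1, pandas 2.3.3, numpy 2.4.6 and Python 3.11.15.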

Additional observations from a re-analysis of the deposited data

How the results depend on the processing

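Values are means over the 3 samples, set against their SD over samples, which mixes the 2 cell lines. With more than 30 IP reads per bin the mean log2 of the mRNAs moved from -2.42 to -2.19 and that of the heavy strand from -2.43 to -2.29. With more than 100 reads the mRNAs had -2.17, the whole light strand went from -1.88 to -0.11 and the stretch opposite the rRNA genes from 2.30 to 3.24. The mRNAs and the heavy strand had -2.01 and -2.02 with no division by totals, -2.29 and -2.29 without bins lacking input, and -2.20 and -2.23 over common bins. With the strand as listed, the mRNAs had -2.20 and the heavy strand -1.88. By construction the rRNAs then had 2.30 and the stretch opposite them -2.53, with MT-RNR1 at 2.04 and MT-RNR2 at 2.42. Listed bins fell from 589, 973 and 1146 to 65, 215 and 408 above 30 reads and to 4, 42 and 107 above 100, and common bins from 526 to 57 and 4.

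With no replicate block (reads of the paired UACC-62 replicates summed before the ratio) the mean over all bins was -2.26 instead of -2.19, and the stretch opposite the rRNA genes 2.27. Leaving out UACC-62 replicate 1 or 3 gave -2.10 and -2.48 over all bins and 2.59 and 1.94 for that stretch. The light strand outside that stretch went from -2.20 to -2.88 without replicate 3, and the whole light strand from -1.88 to -2.48. Among alternative values of the comparisons, 129 stayed within the limit set, 21 moved beyond it and 2 changed sign. The limit was 1 SD for log2 values and shares, and a fixed factor for counts of bins and genes. Above 30 reads the rRNAs and tRNAs, and above 100 reads also the light strand outside that stretch, lacked bins in at least 1 sample and have no mean. A count of 4 IP reads per bin limits what the lists can show of weak RNA, and SK-Mel-103 has no replicate.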
